A study of Mus musculus with 6 samples.

Results

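The cells described here were non-cycling barcodes with an intermediate load of immunoglobulin transcripts, taken from 6 single cell RNA-seq libraries labelled as germinal center (GC) B-cells of mice. They were chosen by measured values. A barcode was kept with at least 500 detected genes and under 10% mitochondrial unique molecular identifiers (UMIs), and was selected where immunoglobulin and *Jchain* UMIs made up 8% to under 50% of its total, *Xbp1* had at least 2 UMIs, no *Cd3d*, *Cd3e* or *Cd3g* UMI was present and at most 1 of 6 cycle genes (*Top2a*, *Mki67*, *Pclaf*, *Rrm2*, *Ube2c* and *Tyms*) was detected. Of 21568 retained barcodes among 22939 deposited, 132 met these conditions, or 0.612%. The immunoglobulin share, *Xbp1*, the *Cd3* genes and the 6 cycle genes are therefore properties of the selection and not findings. All 6 libraries came from mice with the *Cγ1*-Cre allele, in which the recombinase sits in the *Ighg1* locus and is made once the germline transcript of that gene is induced during B-cell activation. Per the titles, 3 libraries were *Smc3* wt/wt and 3 were *Smc3* wt/-, in which an allele of this cohesin ATPase subunit is deleted in B-cells that have expressed Cre. The age of the mice is not given in the sources used here. The labels name the material only as GC B-cells. Per the study's methods, the cells were sorted from spleens, 8 days after the mice were immunized with sheep red blood cells.

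When an activated B-cell becomes an antibody-secreting cell, it enlarges its endoplasmic reticulum (ER), and transcripts of immunoglobulin chains come to fill a large part of its mRNA. *Xbp1* encodes a transcription factor of the unfolded protein response that induces genes for protein entry into the ER, folding, glycosylation and degradation. Dividing cells at the start of this path are called plasmablasts and non-dividing ones plasma cells, and the loss of MHC class II and of B-cell identity transcripts accompanies the change. Cells were compared here with 3 other gates. Majority-load cells met the same conditions on *Xbp1* and *Cd3* but had 50% or more immunoglobulin UMIs and no limit on cycle genes (1618 cells). Cycling intermediate-load cells had the same immunoglobulin window and at least 2 of the 6 cycle genes (232 cells). Low-load B-cells had an immunoglobulin share under 8%, a *Cd79a* UMI, no *Cd3* UMI and at most 1 cycle gene (6596 cells).

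Several markers of antibody-secreting cells were present in most of the selected cells. *Sec11c*, a catalytic subunit of the signal peptidase, and *Hsp90b1*, the ER chaperone GRP94, had a UMI in all 132 cells, and *Txndc5*, an ER protein disulfide isomerase, in 123. *Mzb1*, an ER cochaperone of immunoglobulin assembly, was detected in 129 cells, *Derl3* in 105, *Slamf7* in 96, *Tnfrsf17*, which encodes the survival receptor BCMA, in 80, *Sdc1*, which encodes CD138, in 62, *Irf4* in 62 and *Prdm1*, which encodes the repressor BLIMP1, in 49. Of these 7 plasma cell markers from *Prdm1* to *Derl3*, at least 3 were detected in 117 of the 132 cells and in 0 of 487 T cells, which allows a share of up to 0.616% of T cells by counting error alone. Of these T cells 146 were in wt/- replicate 2, so the limit is wider for that library. Not all 7 genes are restricted to antibody-secreting cells, since of the 6596 low-load B-cells (median 3127 UMIs) 5829 had a UMI of *Mzb1*, 1959 of *Slamf7*, 246 of *Derl3*, 159 of *Irf4*, 19 of *Tnfrsf17*, 18 of *Prdm1* and 15 of *Sdc1*. T cells (at least 2 *Cd3* UMIs and no *Cd79a* UMI) served as the background for free RNA, with a median of 1712 UMIs per cell against 6817.5 in the selected cells. *Tnfrsf17* was found mostly in 1 library, in 73 of 101 cells of wt/- replicate 2 and in 1 of 7, 2 of 9, 1 of 2 and 3 of 13 cells of wt/wt replicates 2 and 3 and wt/- replicates 1 and 3. *Sdc1* had a UMI in 2 T cells, *Tnfrsf17* in 3, *Prdm1* in 2, *Sec11c* in 196, *Hsp90b1* in 143 and *Txndc5* in 31. The B-cell receptor genes *Cd79a* and *Cd79b* were detected in 124 and 122 of the selected cells, *Ms4a1*, which encodes CD20, in 44, *Pax5* in 6 and *Cd22* in 5. *Ms4a1* was found in 26 of 101 cells of wt/- replicate 2 and in 5 of 7, 5 of 9, 0 of 2 and 8 of 13 cells of the other 4 libraries in the same order. Among markers of other cell types, the T cell gene *Cd8a*, the myeloid gene *Mpo* and the erythroid gene *Alas2* had no UMI in any selected cell. *Trac* had a UMI in 1 cell, *Cd4* in 6, *Lyz2* in 6, *Cd68* in 11, *S100a8* in 14 and *Cox6a2*, a plasmacytoid dendritic cell marker, in 3 cells with 10 UMIs. The haemoglobin genes *Hba-a1* and *Hbb-bs* had a UMI in 24 and 63 selected cells and in 13 and 85 of 487 T cells. The cells with *Cd4*, *Lyz2* or *S100a8* were all in wt/- replicate 2, as were 23 of the 24 with *Hba-a1* and 57 of the 63 with *Hbb-bs*.

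The library of *Smc3* wt/- replicate 2 stood apart from the others, and it held 101 of the 132 selected cells. Immunoglobulin made up 60.5% of the UMIs of its retained barcodes against 2.62% to 4.44% in the other 5. Its T cells had a median immunoglobulin share of 1.30%, with a highest value of 5.35%, against medians of 0.0908% to 0.162% elsewhere, so no T cell reached the lower bound of 8%. *Igha* made up 91.0% of the heavy chain constant UMIs of its T cells and 3.13% to 12.2% elsewhere. The genes and counts that the results turn on are therefore given per library. Library totals ranged from 5223325 to 35354257 UMIs. Of all barcodes, 276 were shared by libraries, among them those of 3 selected cells, and the barcode of none of these belonged to a selected cell in another library. Transcripts of Y-linked genes were near 0 in wt/wt replicate 3 and wt/- replicates 1 and 3 and 53.9 to 188 per 1000000 UMIs in the other 3, so the sex of the mice differed between libraries of the same genotype.

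*Smc3* (chromosome 19, 53600398 to 53645833, plus strand, GRCm38) was measured first as a check of the labels, although 3′ counting also reads transcripts that lack the deleted exon 4. Over all retained barcodes its level was 151, 161 and 151 CPM (per 1000000 UMIs of the genes that the selection does not read) in wt/wt replicates 1 to 3, and 152, 71.8 and 166 CPM in wt/- replicates 1 to 3. The means were 155 ± 5.49 and 130 ± 50.8 CPM (SD, n = 3 libraries each, exact two-sided permutation p = 0.9). The groups overlapped, and the low wt/- value was that of replicate 2. In the selected cells *Smc3* had 3 and 5 UMIs in wt/wt replicates 2 and 3 and 1, 22 and 4 UMIs in wt/- replicates 1 to 3, too few to compare genotypes.

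The selected cells were unevenly spread over the libraries. There were 0, 7 and 9 in wt/wt replicates 1 to 3 and 2, 101 and 13 in wt/- replicates 1 to 3. As a share of retained barcodes this was 0, 0.135 and 0.202% in wt/wt and 0.0819, 2.75 and 0.271% in wt/-. The 0 of 1021 barcodes in wt/wt replicate 1 allows up to 0.294%. The mean share was 0.112 ± 0.103% in wt/wt and 1.03 ± 1.49% in wt/- (SD, n = 3 each), a difference of 0.920 percentage points (exact two-sided permutation p = 0.3, with 0.1 the smallest that 3 against 3 libraries can give). Without wt/- replicate 2 the difference was 0.0641 points (exact permutation p = 0.6, smallest 0.2). Taken instead as a share of all cells in the 3 gates with *Xbp1* and 8% or more immunoglobulin, the selected cells made up 0 of 28, 12.1% and 15.5% in wt/wt and 4.55%, 5.86% and 18.3% in wt/-. On this denominator the library with most selected cells had a lower share than 3 other libraries that contained any, and its 95% Clopper-Pearson interval was 4.80% to 7.08%. The intervals and limits cover counting error only.

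Within the window the median immunoglobulin share was 37.1%, and it ranged from 8.59% to 49.9%. Few cells lay near the lower bound. Among cells that met the other conditions, 20 had a share of 4% to under 6% and 2 had 6% to under 8%. Above the bound, 1 had 8% to under 10% and 1 had 10% to under 12%. Cells lay on both sides of the upper bound, with 25 from 45% to under 50% and 28 from 50% to under 55%, of which 24 and 24 were in wt/- replicate 2. The nearest cells on the 2 sides of the lower bound had 7.31% and 8.59%, and those at the upper bound 49.9% and 50.3%. On *Xbp1*, 10 selected cells had the minimum of 2 UMIs, while 13 cells with 1 UMI and 31 with none were left out. The cycle limit left 81 cells with no cycle gene and 51 with 1, and 21 cells with 2 fell into the cycling gate. The selected cells had fewer UMIs in total than majority-load cells but more UMIs outside immunoglobulin. In wt/- replicate 2 the median was 6701 UMIs in selected cells and 15776 in majority-load cells, and the medians of UMIs outside immunoglobulin were 4133 and 3169.5. In wt/wt replicate 2 the latter were 6815 and 3384, in wt/wt replicate 3 they were 6025 and 3601 and in wt/- replicate 3 they were 3985 and 3003.

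**Figure D1:**
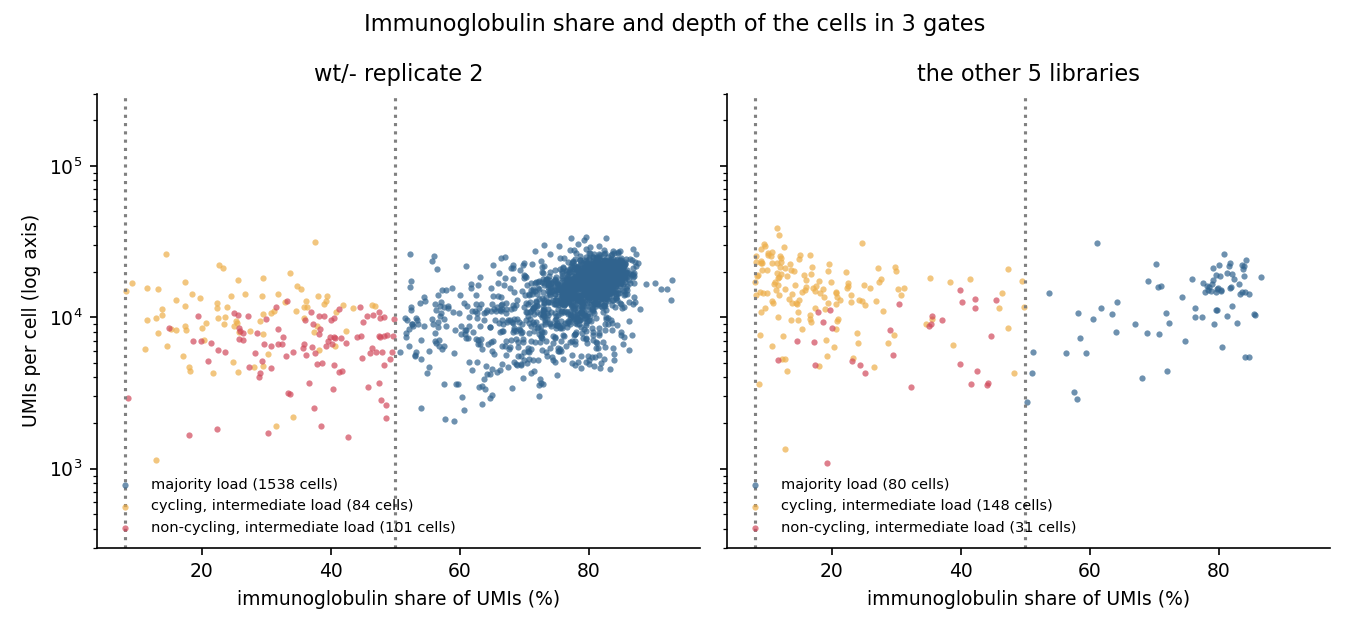
Each point is a cell, placed by the immunoglobulin share of its UMIs (x axis, %) and its UMIs (y axis, log scale), in wt/- replicate 2 (left) and in the other 5 libraries (right). Dotted lines mark 8% and 50%. The selected cells (101 and 31) merge with the majority-load cells at 50% in wt/- replicate 2 and are sparse near 8%.

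The selection read the sum of all immunoglobulin UMIs, heavy chain constant genes included, so which of these genes led in a cell is given as a description and without a test. Each cell was assigned to the heavy chain constant gene with most UMIs. *Igha*, the constant gene of IgA, led in 94 of the 132 selected cells, *Ighm* (IgM) in 23, *Ighg1* in 7, *Ighg2b* in 5, *Ighg3* in 2 and *Ighg2c* in 1. The leading gene held at least 80% of heavy chain UMIs in 131 cells. The *Igha* count rested on 1 library. In wt/- replicate 2 *Igha* led in 87 of 101 cells, whereas in the other libraries together *Ighm* led in 15 of 31 cells, and *Ighg1* and *Igha* in 7 each. Because free RNA of wt/- replicate 2 was also mostly *Igha*, its part in these counts was not tested. In this library the highest immunoglobulin share of any T cell was 5.35%. The T cells were chosen without a *Cd79a* UMI, so this value is not a limit for other barcodes.

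Majority-load cells were led by *Igha* in every library, in 13 of 13, 14 of 18 and 20 of 21 cells of wt/wt replicates 1 to 3 and in 9 of 10, 1479 of 1538 and 16 of 18 cells of wt/- replicates 1 to 3. In the 5 libraries with selected cells the *Igha*-led share of these was 14.3% and 22.2% in wt/wt replicates 2 and 3 and 86.1% and 23.1% in wt/- replicates 2 and 3, and *Igha* led 1 of the 2 cells of wt/- replicate 1. It was lower than in majority-load cells in 5 of 5 libraries, with a mean difference of -50.5 ± 25.8 percentage points (SD). Without wt/- replicate 2 the difference was -60.6 ± 14.3 points. Against cycling intermediate-load cells the *Igha*-led share was higher in 5 of 5 libraries, by 19.5 ± 16.02 points (SD). Without wt/- replicate 1, which had 2 selected cells, this was 12.7 ± 5.51 points. Cycling cells outside wt/- replicate 2 were led by *Ighm* in 60 of 148 cases and by *Ighg1* in 51, and by *Igha* in 9. The *Cγ1*-Cre allele lies in the *Ighg1* locus, and its effect on *Ighg1* counts was not tested. *Igkc* led over the lambda genes in 119 of the 132 selected cells, 92 of 101 in wt/- replicate 2 and 27 of 31 elsewhere.

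**Figure D2:**
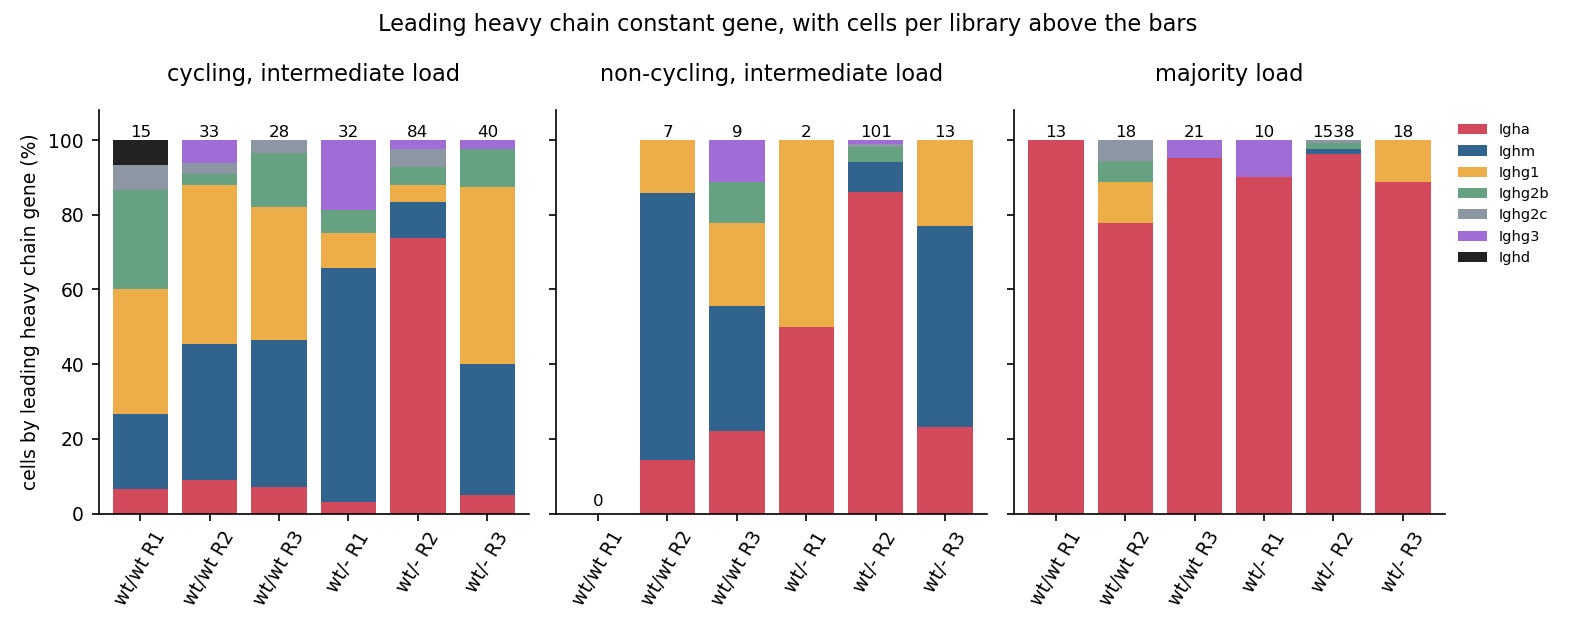
Bars give the share of cells (y axis, %) led by each heavy chain constant gene, for each library (x axis) in the cycling, the selected and the majority-load gates, with the number of cells above each bar. *Igha* is most of every majority-load bar and of the 2 other bars of wt/- replicate 2, while the selected cells of wt/wt replicate 2 and wt/- replicate 3 are mostly *Ighm*.

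Gene levels were then compared between gates within libraries. UMIs were summed per library and gate, genes read by the selection were left out, and edgeR's quasi-likelihood test with the library as a block gave log2 fold changes and Benjamini-Hochberg adjusted p-values, called under 0.05. Only wt/- replicates 2 and 3 had at least 10 cells in each gate, so the fit rested on 2 libraries. A fit over the 4 libraries with at least 5 cells (wt/wt and wt/- replicates 2 and 3) was added after the data had been seen and is given beside it. The study sorted cells from several mice of each genotype, but the sources used here do not say which mice went into which library. The p-values therefore refer to the spread between libraries, part of which may be technical. With 2 libraries a single gene says little about this spread, and edgeR estimates it largely from all genes together. Very small adjusted p-values of that fit do not measure the spread of the gene itself. The gates differ by construction in immunoglobulin load, *Xbp1* or cycle genes, and genes that follow these are not independent evidence of what the cells are.

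Against low-load B-cells, the secretory machinery was higher in the selected cells at every step from entry into the ER to export, while B-cell identity and MHC class II genes were lower. Over 7393 genes, 5.87% were called higher and 5.86% lower (434 and 433 genes). With 4 libraries 8.76% of 7148 genes were called higher and 13.7% lower. DESeq2 called 415 genes over the 2 libraries in place of 867. Against this background 17 of 17 ER folding genes, 16 of 19 genes of signal peptide handling and translocation, 9 of 10 N-glycosylation genes, 8 of 9 tested genes of ER-associated degradation and 9 of 11 tested genes of ER to Golgi transport were higher and none of them lower. Their median log2 fold changes were 3.58, 2.43, 2.51, 2.75 and 2.52, beside -0.28 over all genes.

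*Hsp90b1* had 6746 and 9983 CPM in the selected cells of wt/wt replicates 2 and 3 and 9889 and 9845 CPM in those of wt/- replicates 2 and 3. In low-load B-cells of the same libraries it had 105, 104, 261 and 121 CPM. Every selected value lay above every low-load value, with a log2 fold change of 5.71 ± 0.26 (SE, adjusted p = 2.49e-102 by edgeR). *Creld2*, an ER disulfide isomerase, had a log2 fold change of 5.26 ± 0.41, *Sdf2l1*, a part of the BiP chaperone cycle, 4.55 ± 0.37 and *Pdia4* 4.52 ± 0.43. At the translocon, *Sec11c* was higher by 3.90 ± 0.28 and *Ssr2* and *Ssr4*, subunits of the translocon-associated protein complex, by 3.48 ± 0.38 and 3.35 ± 0.32. The oligosaccharyltransferase subunit *Rpn1* was higher by 3.83 ± 0.41, the mannosidase-like degradation factor *Edem1* by 4.33 ± 0.37 and the cargo receptor *Lman1* by 4.53 ± 0.46, all log2 fold changes with SE and called in the 2-library and the 4-library fit.

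Of the 13 tested plasma cell genes, 12 were higher. *Fkbp11*, an ER peptidyl-prolyl isomerase, had 491, 709, 788 and 467 CPM in the selected cells of wt/wt replicates 2 and 3 and wt/- replicates 2 and 3, and 2.72 to 6.84 CPM in low-load B-cells. *Prdm1* had 123, 118, 90.7 and 168 CPM against at most 1.46 CPM in low-load cells. *Cd28*, a costimulatory receptor with a role in long-lived plasma cells, had 61.3, 118, 198 and 280 CPM against at most 0.726 CPM. The groups did not overlap for these 3 genes. Of 14 B-cell identity genes, 12 were lower, with a median log2 fold change of -2.99. *Cd22*, an inhibitory coreceptor, had 40.9, 0, 4.65 and 37.4 CPM in the selected cells and 232 to 269 CPM in low-load cells. The transcription factor *Spib* had 0, 0, 6.98 and 18.7 CPM against 137 to 271 CPM. Of 10 MHC class II genes, 9 were lower. *Ciita*, the class II transactivator, was lower with a log2 fold change of -4.41 ± 0.76 (edgeR adjusted p = 2.96e-07), and *H2-Oa* with -4.43 ± 0.61. The NF-κB subunit *Rel* had no UMI in the selected cells of the 4 libraries against 75.2 to 111 CPM, which made it at least 16.3-fold lower (3 counts over the 2 libraries of the fit). *Ccr10*, the receptor for the mucosal chemokine CCL28, was higher with 102, 98.5, 460 and 93.4 CPM against 0 to 10.2 CPM. *Ccr6*, *Cxcr5* and *Ccr7*, receptors that place B-cells in follicles and T cell zones, were lower. Erythroid transcripts moved with this comparison. Their summed level was 59.1 to 347 CPM in the selected cells and 165 to 10398 CPM in low-load B-cells, and 5 of the 5 tested erythroid genes were called lower. Of the 5 tested monocyte and macrophage genes 2 were lower, *Lyz2* and *Fcer1g*, and their list summed to 59.1 to 265 CPM in the selected cells and 45.8 to 841 CPM in low-load B-cells. The part of either list in the other differences was not tested.

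Promoter sequences of *Hsp90b1* and *Hspa5*, 2 of the 17 ER folding genes that were called higher, and of the plasma cell gene *Derl3* are shown as examples of those that hold an element of the ER stress response. The ER stress element, which ATF6 and XBP1 can bind with NF-Y, was searched in the 250 bases before each RefSeq gene start (GRCm38.p6) as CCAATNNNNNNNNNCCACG, on both strands. It was found for 35 of 27025 genes, or 0.130%. Of the 17 ER folding genes 15 were in the promoter table, and 7 held the element: *Calr*, *Canx*, *Creld2*, *Dnajc3*, *Hsp90b1*, *Hspa5* and *Pdia6*. In the plasma cell list it was found in 1 of 11 promoters, that of *Derl3*, in ER-associated degradation in 1 of 9, that of *Syvn1*, and in none of 14 translocation, 9 glycosylation, 10 B-cell identity and 7 MHC class II promoters in the table. The unfolded protein response core TGACGTGG, searched the same way, was found for 0.603% of all genes, 1 of 15 ER folding genes and 2 of 9 ER to Golgi genes. Capitals mark the matches to the ER stress element on either strand in the following windows, each 250 bases written 5′ to 3′ on the strand of the gene. A match is a description of letters and not a site of binding.
Hsp90b1, chr10:86705445-86705694, minus strand: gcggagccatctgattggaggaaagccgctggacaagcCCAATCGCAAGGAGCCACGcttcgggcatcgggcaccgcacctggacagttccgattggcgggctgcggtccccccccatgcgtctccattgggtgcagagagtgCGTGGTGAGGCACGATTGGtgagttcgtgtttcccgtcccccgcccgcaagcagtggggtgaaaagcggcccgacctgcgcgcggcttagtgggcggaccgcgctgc
Hspa5, chr2:34771840-34772089, plus strand: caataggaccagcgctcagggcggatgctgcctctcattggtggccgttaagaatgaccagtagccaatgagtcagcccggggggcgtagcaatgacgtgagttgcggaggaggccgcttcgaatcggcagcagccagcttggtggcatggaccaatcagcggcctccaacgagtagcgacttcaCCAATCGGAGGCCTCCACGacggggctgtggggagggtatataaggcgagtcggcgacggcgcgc
Derl3, chr10:75893148-75893397, plus strand: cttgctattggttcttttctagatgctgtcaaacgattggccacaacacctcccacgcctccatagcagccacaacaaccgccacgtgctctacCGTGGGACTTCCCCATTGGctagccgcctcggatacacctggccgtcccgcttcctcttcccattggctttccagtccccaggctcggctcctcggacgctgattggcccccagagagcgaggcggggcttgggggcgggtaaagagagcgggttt

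**Figure D3:**
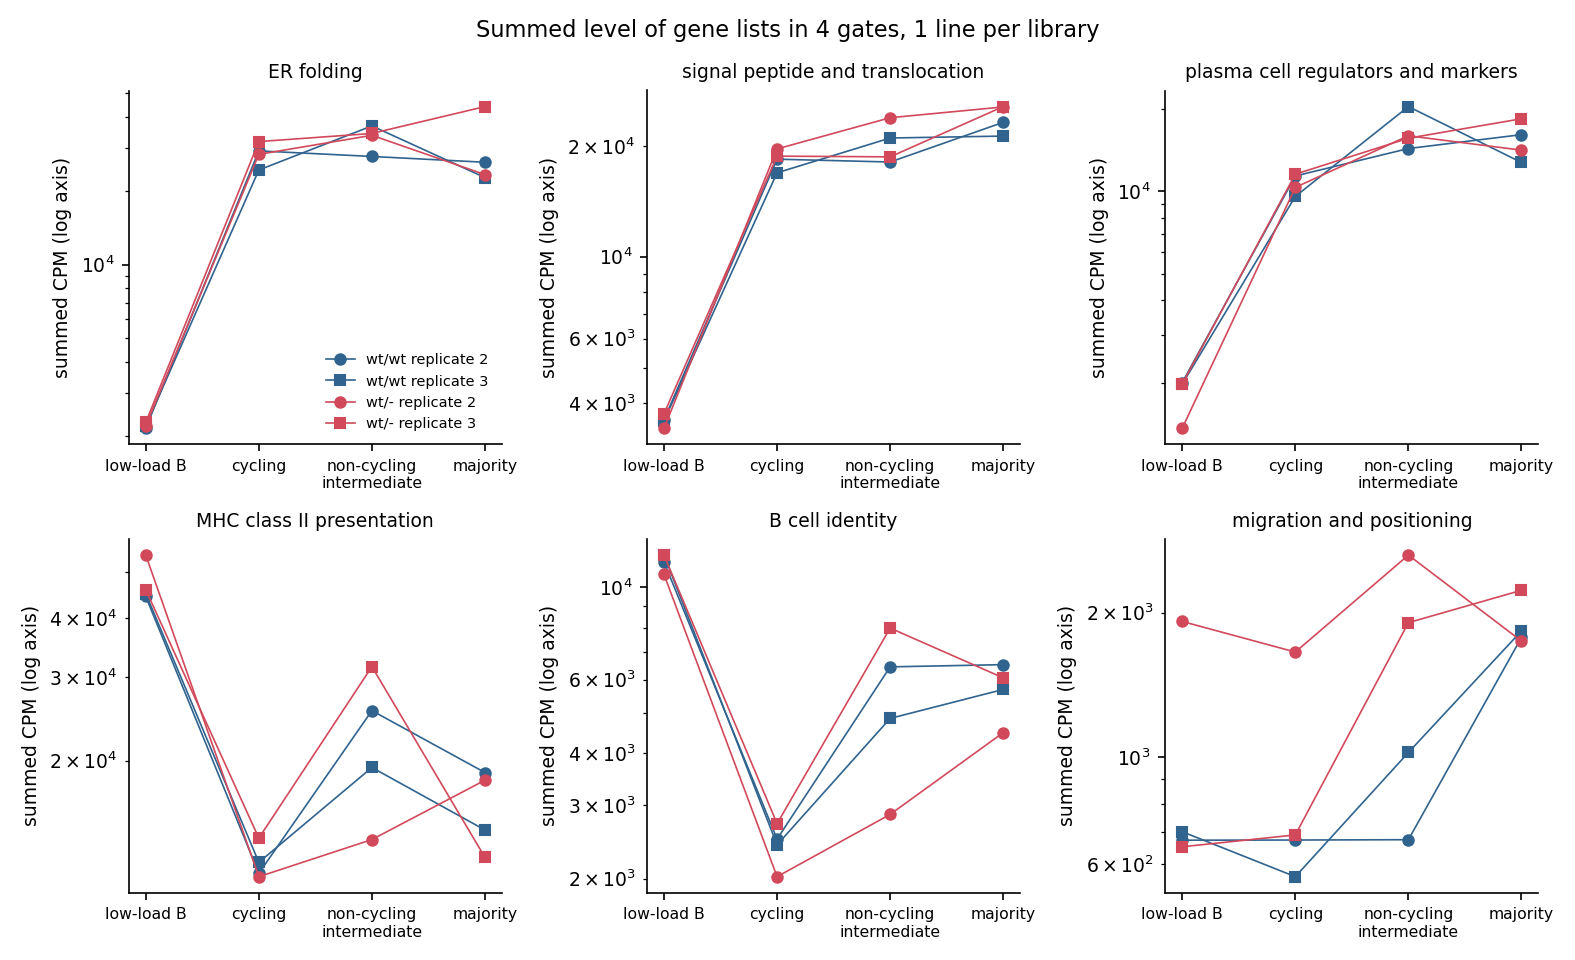
Each line is a library with at least 5 selected cells, and each point the summed level of a gene list (y axis, CPM, log scale) in low-load B-cells, cycling intermediate-load cells, the selected cells and majority-load cells (x axis). ER folding rises from 2149 to 2268 CPM in low-load B-cells to 27616 to 36803 CPM in the selected cells, and MHC class II falls from 44405 to 54298 CPM to 13640 to 31590 CPM.

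Against majority-load cells, most genes of the secretory machinery did not pass the test in 2 libraries, while 6 of 7 tested MHC class II genes were higher in the selected cells and 5 of 14 plasma cell genes were lower, beside calls in other lists and in genes of no list. Over 2902 genes, 3.24% were called higher and 3.1% lower (94 and 90 genes). With 4 libraries 13.6% of 845 genes were higher and 11.7% lower. Of the 184 genes called in 2 libraries, 77 were tested in 4 libraries, and 65 were called there in the same direction and 0 in the opposite one. DESeq2 called 21 genes over the same 2 libraries, and removing marked doublets or raising the lower bound to 15% left 68 and 62 calls.

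Of 7 tested MHC class II genes, 6 were called higher, with a median log2 fold change of 1.32 beside -0.01 over all genes. *H2-Aa*, the alpha chain of I-A, had 2944, 1181, 765 and 2952 CPM in the selected cells of wt/wt replicates 2 and 3 and wt/- replicates 2 and 3, and 865, 685, 376 and 633 CPM in majority-load cells. It was higher in 4 of 4 libraries, although the values overlapped across libraries (log2 fold change 1.56 ± 0.30, edgeR adjusted p = 1.25e-05, and 1.41 in 4 libraries, edgeR adjusted p = 0.000879). *H2-Eb1*, the beta chain of I-E, was higher by 1.32 ± 0.29 and *H2-DMb2*, which loads peptides, by 1.78 ± 0.44. *Cd74*, the invariant chain, was tested and not called, with 15229, 12799, 9921 and 20232 CPM in the selected cells and 14426, 11168, 15984 and 9340 CPM in majority-load cells. It was lower in wt/- replicate 2 and higher in the other 3. Because *Cd74* makes up most of the summed list, the sum in wt/- replicate 2 was 13640 CPM in the selected cells and 18198 CPM in majority-load cells, opposite in direction to the median over genes. In the B-cell identity list 1 of 6 tested genes was called, *Ms4a1*, higher by 1.56 ± 0.34.

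Of 14 plasma cell genes, 5 were lower and 0 higher (median log2 fold change -0.60). *Sdc1* had 61.3, 138, 233 and 149 CPM in the selected cells and 433, 496, 491 and 537 CPM in majority-load cells. The groups did not overlap (log2 fold change -1.27 ± 0.32, edgeR adjusted p = 0.00255, and -1.60 in 4 libraries, edgeR adjusted p = 0.000214). *Tnfrsf13b*, which encodes the receptor TACI, had 225, 138, 200 and 74.7 CPM against 403, 567, 390 and 345 CPM, again without overlap. *Cd93*, an adhesion receptor of long-lived plasma cells, had 1, 0, 4 and 0 UMIs in the selected cells and a log2 fold change of -2.97 ± 0.62. *Ly6c2* was lower with a log2 fold change of -2.45 ± 0.34, but in 4 libraries the edgeR adjusted p was 0.0663. *Prdm1*, *Irf4*, *Mzb1* and *Derl3* were not called in 2 libraries (in 4, *Mzb1* was called higher with an edgeR adjusted p of 0.0472), with log2 fold changes of -0.05 ± 0.39, 0.80 ± 0.38, 0.40 ± 0.34 and -0.53 ± 0.29.

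In the ER lists genes went in opposite directions, and in 2 libraries few were called. *Calr* and *Pdia3*, which fold glycoproteins, were higher, *Calr* with a log2 fold change of 0.97 ± 0.30 and *Pdia3* with 1390, 1851, 1230 and 1887 CPM against 955, 579, 577 and 1074 CPM. *Txndc5* was lower, with 1574, 2166, 2133 and 1607 CPM against 2506, 4030, 3874 and 3816 CPM. The translocon subunit *Ssr2* was higher, with 1206, 1556, 1256 and 1196 CPM against 641, 461, 476 and 614 CPM. Its partner *Ssr4* was lower, with 1697, 2422, 2230 and 1868 CPM against 4266, 3912, 4907 and 4488 CPM. Neither gene overlapped between the gates. *Edem2* and *Sel1l*, factors of ER-associated degradation, were lower with log2 fold changes of -1.11 ± 0.31 and -1.03 ± 0.31. *Hsp90b1* was not called (0.37 ± 0.34), and of the 10 tested genes of ER to Golgi transport edgeR called 0 and DESeq2 called 0, while 1 of them, the KDEL receptor gene *Kdelr2*, had an unadjusted edgeR p below 0.05. *Kdelr2* was called higher in 4 libraries, with 368, 374, 270 and 448 CPM against 179, 130, 195 and 230 CPM. In the 4-library fit, where 13.6% of all genes were called higher and 11.7% lower, 5 of 17 tested translocation genes were lower (*Sec11c*, *Spcs1*, *Spcs2*, *Srpr* and *Ssr4*) and 1 higher (*Ssr2*), 4 of 8 degradation genes were lower (*Edem1* and *Herpud1* beside *Edem2* and *Sel1l*), 4 of 16 ER folding genes were higher (*Calr*, *P4hb*, *Pdia3* and *Pdia6*) and 1 lower, and 3 of 9 glycosylation genes were higher (*Ddost*, *Ostc* and *Rpn1*). *Sec11c*, the signal peptidase subunit, had 2126, 3131, 4900 and 2952 CPM in the selected cells and 4431, 4018, 5328 and 4775 CPM in majority-load cells, lower in 4 of 4 libraries (log2 fold change -0.55, edgeR adjusted p = 0.0211). *Ccr10* was lower, with 102, 98.5, 460 and 93.4 CPM against 597, 650, 926 and 479 CPM. The integrin chains *Itgb1* and *Itga4* and the sphingosine receptor *S1pr4* were higher by 2.25 ± 0.46, 1.01 ± 0.32 and 1.94 ± 0.37 in 2 libraries. In 4 libraries *Itga4* was not called (edgeR adjusted p = 0.0784), and *Itgb1* and *S1pr4* were not tested.

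Among all genes, the lowest were led by *Prg2*, an eosinophil granule protein gene also found in plasma cells, with 0, 59.1, 74.4 and 56.0 CPM in the selected cells and 746, 319, 2756 and 211 CPM in majority-load cells (log2 fold change -4.85 ± 0.45, edgeR adjusted p = 1.79e-23, and -4.79 in 4 libraries). *Tmem176a* and *Tmem176b*, neighbouring genes of membrane channels, were lower with log2 fold changes of -3.47 ± 0.36 and -3.44 ± 0.35. The metallothionein *Mt1* was lower with a log2 fold change of -2.42 ± 0.33. The highest were led by *Anxa2*, *Cdc25b* and *Vim*. *Anxa2*, a membrane-binding annexin, had 20.4, 276, 440 and 299 CPM against 59.7, 70.9, 36.5 and 76.7 CPM, higher in 3 of 4 libraries (log2 fold change 3.36 ± 0.37). *Vim*, an intermediate filament, and *Isg15*, an interferon-induced gene, were higher in wt/- replicates 2 and 3 and not in the wt/wt replicates. *Gmfg*, an actin regulator, was higher in 4 of 4 libraries, by 2.39 ± 0.33. Haemoglobin transcripts moved with this comparison. *Hba-a1*, *Hba-a2* and *Hbb-bs* were lower with log2 fold changes of -2.81 to -2.27, and the summed erythroid level of majority-load cells was 2311 CPM in wt/- replicate 2 and 115 to 388 CPM in the other 3 libraries of the fits. Neutrophil transcripts were 0 to 83.7 CPM in the selected cells and 0 to 325 CPM in majority-load cells, and the part of either in the differences was not tested.

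**Figure D4:**
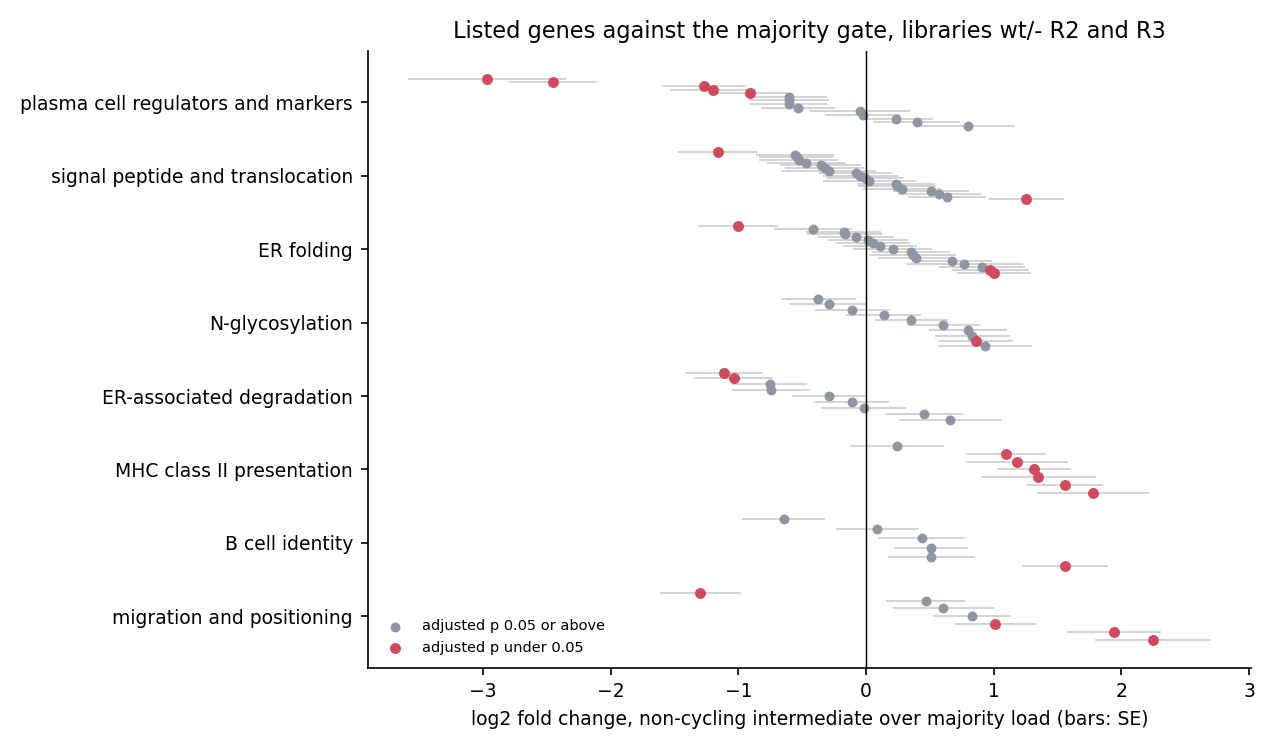
Each point is a gene of a list (y axis), placed by its log2 fold change of selected over majority-load cells in the fit of 2 libraries (x axis), with bars for the SE. Red points passed an adjusted p under 0.05: 6 MHC class II genes to the right and 5 plasma cell genes to the left.

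Against cycling intermediate-load cells, which share the immunoglobulin window, the selected cells had lower cycle genes, a consequence of the selection, and higher levels of a part of the plasma cell and ER genes. Over 4646 genes, 2.5% were called higher and 7.21% lower (116 and 335 genes), and with 4 libraries 6.58% of 4165 genes were higher and 13% lower. DESeq2 called 69 genes over the 2 libraries in place of 451, and the 4-library count fell from 815 to 327 without wt/- replicate 2. Of the 16 cycle genes that the selection did not read, 16 were lower, and *Ccnb1* and *Mcm4* had 0 UMIs in the 2 libraries of the fit, which made them at least 41.8-fold and 11.3-fold lower. This is given as a description, since the gates were set by 6 genes of the same program. In the cohesin core, *Smc1a* was lower with 102, 59.1, 32.6 and 56.0 CPM against 147, 158, 158 and 145 CPM, and *Rad21* with 61.3, 78.8, 30.2 and 37.4 CPM against 118, 109, 116 and 103 CPM, both without overlap. *Smc3* was not called in 2 libraries (log2 fold change -1.04 ± 0.39, edgeR adjusted p = 0.0832) and was called in 4 (-0.89, edgeR adjusted p = 0.0338). *Stag1* and *Stag2*, which encode alternative cohesin subunits, were tested and not called in either fit, with log2 fold changes of -0.64 ± 0.46 and -0.16 ± 0.54 in 2 libraries. Against majority-load cells 3 of the 5 cohesin core genes were tested in 2 libraries and 0 in 4, and none was called. Against low-load B-cells all 5 were tested in both fits and none was called.

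No ER or plasma cell gene was called lower against cycling cells. Among the higher ones, *Txndc5* had 1574, 2166, 2133 and 1607 CPM in the selected cells and 973, 900, 1290 and 912 CPM in cycling cells, without overlap (log2 fold change 0.80 ± 0.19, edgeR adjusted p = 0.00276). *Mzb1* was higher by 0.58 ± 0.15, *Ssr4* by 0.76 ± 0.19, *Edem2* by 0.86 ± 0.25 and *Trp53inp1*, a stress-induced gene of plasma cells, by 1.77 ± 0.29. In 2 libraries 2 of 13 plasma cell genes and 3 of 17 ER folding genes were called, and in 4 libraries 7 of 12 and 7 of 17. *Cd74* was higher in 4 of 4 libraries, with 6402, 6592, 7393 and 7949 CPM in cycling cells and a log2 fold change of 0.91 ± 0.15, and *H2-Ob* by 1.38 ± 0.39. *Cd79b* and the B-cell transcription factor *Ebf1* were higher by 0.83 ± 0.21 and 1.19 ± 0.32. Of the migration list *Itgb1*, *Itgb7*, *Klf2* and *Itga4* were higher, with *Itgb7*, an integrin of gut homing, at 61.3, 177, 386 and 299 CPM against 38.5, 36.3, 257 and 66.9 CPM. *Mcl1* and *Bcl2*, which protect from cell death, were higher by 0.95 ± 0.31 and 1.85 ± 0.60, and *Bcl2* had no UMI in the selected cells of either wt/wt library and was not tested in 4 libraries. The neutrophil gene *S100a8* was called lower, but of the 84 cycling cells of wt/- replicate 2 only 1 had 10 or more UMIs of the neutrophil list.

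*Apoe*, which encodes a lipid carrier, had the largest log2 fold change among genes called higher than in cycling cells (3.17 ± 0.34, edgeR adjusted p = 5.93e-10, and 5.34 in 4 libraries, edgeR adjusted p = 0.0474). It had 11549 and 10495 CPM in the selected cells of wt/wt replicates 2 and 3, 121 and 2092 CPM in those of wt/- replicates 2 and 3, and 43.1, 179, 35.7 and 132 CPM in cycling cells. The level was carried by few cells. At least 10 UMIs were found in 5 of 7 and 4 of 9 selected cells of wt/wt replicates 2 and 3 and in 0 of 2, 1 of 101 and 2 of 13 of wt/- replicates 1 to 3. These 12 cells were led by *Ighm* (9 cells) or *Ighg1* (3 cells), and none by *Igha*. The highest single cell held 39.1% and 50.1% of the *Apoe* UMIs in the 2 wt/wt libraries, and 46.2% and 59.8% in wt/- replicates 2 and 3. Over the 6 libraries low-load B-cells had 723 to 1429 CPM, T cells 9.28 to 30.2 CPM with no cell at 10 UMIs, and 1 of the 12 cells had a UMI of *C1qa*, *C1qb*, *C1qc*, *Csf1r* or *Adgre1*, markers of macrophages. *Cd68*, another gene of the monocyte and macrophage list, had a UMI in 2 of 7 and 2 of 9 selected cells of wt/wt replicates 2 and 3 and in 3 of 101 and 4 of 13 of wt/- replicates 2 and 3, and was not counted in the *Apoe*-high cells. The 10 UMI limit was chosen after the values were seen.

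The selected cells also differed among themselves. Cells with 8% to under 20% immunoglobulin (6 in wt/- replicate 2 and 9 in the other libraries) had a summed ER folding level of 14111 and 21135 CPM, against 36529 and 44749 CPM at 20% to under 35% (34 and 8 cells) and 34261 and 40418 CPM at 35% to under 50% (61 and 14 cells). The ER folding value of the other libraries at 20% to under 35% was raised by cells of wt/- replicate 3 with 83333, 80374 and 78688.5 CPM. The rest of the 8 cells had 10296 to 49807 CPM. ER-associated degradation genes had 2194 and 3223 CPM in the lowest range, and 6297 and 6151 CPM in the highest. MHC class II genes went the other way in wt/- replicate 2, with 24719, 12031 and 13317 CPM from the lowest to the highest range, and less so in the other libraries, with 27561, 27350 and 23146 CPM. The high value at 8% to under 20% in wt/- replicate 2 rested on 2 of the 6 cells, with 82589 and 34614 CPM, and the other 4 had 2946 to 18824 CPM. Over single cells the Spearman correlation of the immunoglobulin share with the ER folding level was 0.13 in the 101 cells of wt/- replicate 2 and 0.44 in the other 31, and with the MHC class II level -0.13 and -0.12. These are descriptions over cells that share libraries, and the levels were computed without immunoglobulin UMIs.

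**Figure D5:**
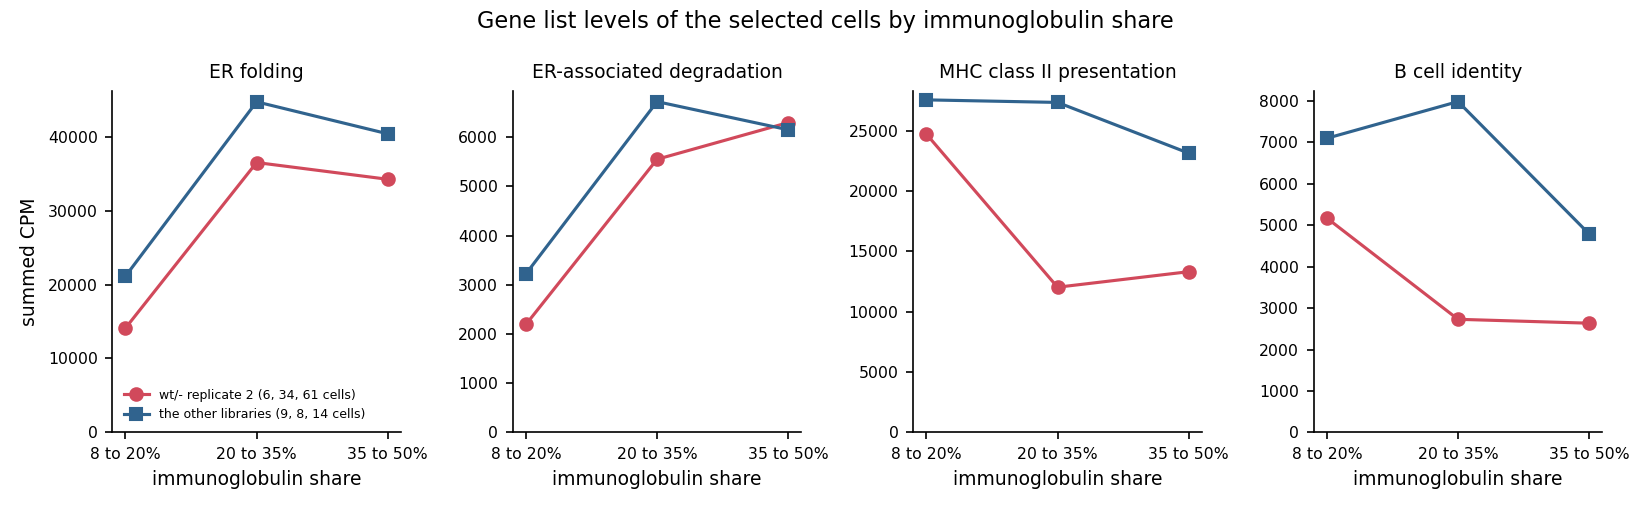
Points give the summed level (y axis, CPM) of 4 gene lists in selected cells grouped by immunoglobulin share (x axis), for wt/- replicate 2 (red, 6, 34 and 61 cells) and the other libraries together (blue, 9, 8 and 14 cells). ER folding and degradation are lowest at 8 to 20%, and the high MHC class II point of wt/- replicate 2 there rests on 2 of 6 cells.

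Selected cells led by *Igha* differed from the rest in class II and migration transcripts. The MHC class II level was 11673 CPM in the 87 *Igha*-led cells of wt/- replicate 2 and 25579 CPM in its 14 other cells, and 7458 CPM in the 7 *Igha*-led cells of the other libraries against 30140 CPM in 24. B-cell identity genes had 2590 and 4439 CPM in wt/- replicate 2 and 3166 and 7069 CPM in the other libraries. The migration list was higher in *Igha*-led cells, with 2836 and 1397 CPM in wt/- replicate 2 and 4109 and 493 CPM elsewhere. ER folding differed little, with 33326 and 35886 CPM in wt/- replicate 2 and 39390 and 33986 CPM elsewhere. The median immunoglobulin share was 37.4% in *Igha*-led cells and 34.5% in the others. Monocyte and macrophage markers summed to 303 CPM in *Igha*-led and 32.9 CPM in other cells of wt/- replicate 2, and to 30.4 and 69.4 CPM elsewhere, and their part in these differences was not tested. These sums pool cells and were not tested. The order was the same in wt/- replicate 2 and in the other libraries for MHC class II, B-cell identity and migration genes, and opposite for ER folding.

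Genotypes could not be compared at 10 cells per library, since no wt/wt library had 10 selected cells. In the fit with at least 5 (2 libraries per genotype), 0.265% of 754 genes were called higher and 0.133% lower in wt/- (2 and 1 genes), and 42 had an unadjusted p below 0.05. *S100a10*, the partner of annexin A2, had 81.8 and 158 CPM in wt/wt replicates 2 and 3 and 886 and 616 CPM in wt/- replicates 2 and 3 (log2 fold change 2.66 ± 0.44, edgeR adjusted p = 0.0176). *Vim* had 0 and 39.4 CPM in wt/wt and 400 and 243 CPM in wt/- (edgeR adjusted p = 0.0453, DESeq2 adjusted p = 0.212), on 0, 2, 172 and 13 UMIs. *Ddt*, a tautomerase related to MIF, had 1186 and 1260 CPM in wt/wt and 274 and 374 CPM in wt/- (log2 fold change -1.99 ± 0.32, edgeR adjusted p = 0.0176). The groups did not overlap for these 3 genes, which was the condition for naming them and is not added support. With the replicate number as a block edgeR called 0 genes (34 with an unadjusted p below 0.05), and 0 with immunoglobulin genes kept (43 below 0.05). Of the plasma cell, ER folding, translocation and MHC class II lists 9, 16, 17 and 7 genes were tested, and none was called. *Prdm1* and *Irf4* were not among the tested genes. With 3 of 754 genes called, the lack of calls says little about these lists. Their medians lay between -0.15 and 0.09 on the log2 scale. The *Igha*-led share was 14.3% and 22.2% in wt/wt and 86.1% and 23.1% in wt/-, and its part in these differences was not tested.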

How the data were processed

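The authors made 10x Genomics 3′ libraries, per their methods, and processed the reads with Cell Ranger (version 3.0.2 per the file headers). The submitters' notes name the build mm10. The deposited values were whole-number UMI counts per gene and barcode, not normalized, for barcodes already called as cells. From these counts, gates were applied with Python 3.11.15 (scipy 1.17.1, pandas 2.3.3), reading 396 symbols that start with Igh, Igk, Igl or Jchain, which include a few genes that are not immunoglobulin genes. All 406 features read by the selection were left out of library sizes and tests.

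CPM are UMIs over the summed UMIs of the remaining genes, multiplied by 1000000. UMIs were summed per library and gate and tested with edgeR 4.0.16 (TMM, filterByExpr, robust quasi-likelihood test, Benjamini-Hochberg adjustment at 0.05), with the library as a block between gates and no covariate between genotypes. The planned minimum of 10 cells left wt/- replicates 2 and 3, and no genotype fit. The fits with at least 5 cells were added after the data were seen. The planned isotype test between genotypes was not made, since no wt/wt library had 10 selected cells, and isotype shares are descriptions. Shares were compared by exact two-sided permutation tests over libraries. DESeq2 1.42.0, other scalings and filters, Scrublet doublet removal (scanpy 1.11.5, 0.8% per 1000 barcodes, 721 barcodes marked, 7 of them selected cells, which were kept in the main results) and left-out libraries were the alternatives. The fits were tested on simulated data.

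The selected cells, gates and gene lists were chosen with earlier results of these data known. Named genes were the cohesin core, the markers, 2 to 4 genes per list by size of the called change (otherwise by level), up to 10 higher and 10 lower per gate comparison among genes called in the same direction in every library of the fit, and up to 5 in each direction between genotypes without overlap. *Cd74* against majority-load cells, *Kdelr2*, *Syvn1*, the genes called only with 4 libraries and the genes used to describe *Apoe*-high cells were named after their values were seen. The result for 1 of the B-cell markers is not reported here.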

Additional observations from a re-analysis of the deposited data

Results flagged for a closer look

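For 8 named genes the difference between the selected cells and another gate had opposite directions in the 2 genotypes, in each of the 2 wt/wt and 2 wt/- libraries with at least 5 selected cells. All 8 had already been called, in the direction given for wt/-, in the fit over these 2 wt/- libraries. That direction was therefore part of how the genes were named, and only the 2 wt/wt libraries were free to differ. The share of all genes with such a pattern is not given, so the count of 8 does not show a genotype effect. The difference between genotypes was not tested, and several of the genes had few or no UMIs. Values are mean log2 ratios of CPM with 10 CPM added. Against majority-load cells, *Vim* was at -1.58 in wt/wt and 2.30 in wt/-, *Isg15* at -2.17 and 1.91, and the cytokinesis gene *Racgap1* at -1.27 and 2.10. Against cycling cells, *Harbi1* was at -1.12 and 1.72, the GC transcription factor *Mef2b* at 0.72 and -1.32, and *Bcl2* at -0.53 and 1.80. Against low-load B-cells, *Chac1*, of the integrated stress response, was at -0.12 and 1.71, and the haemoglobin gene *Hba-a2* at 0.72 and -4.70.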

How the results depend on the processing

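Calls of the named genes were mostly kept over the gate and genotype comparisons. Of 2124 values over 220 genes and comparisons, 1865 stayed on the same side of the threshold. A call was lost for 210 and gained for 46, and 3 reversed. A change of sign counted as reversed only where either fit called the gene. Other changes of sign are among the 1865, and values that a fit did not give were left out. The reversed values were those of *Mef2b* against cycling cells, 0.33 without wt/- replicate 2 and 0.42 without wt/- replicate 3, and *Asns* against low-load B-cells, -0.33 without wt/- replicate 2, all in fits with at least 5 cells; the cause was not tested. Against majority-load cells 184 genes were called, and 21 with DESeq2, 101 with no low-count filter, 68 without doublets and 62 with a lower bound of 15%. Against cycling cells 451 were called, 815 in 4 libraries, 69 with DESeq2 and 259 with no low-count filter. Against low-load B-cells 867 were called, 1603 in 4 libraries and 415 with DESeq2. Leaving out a library was not possible with 2 libraries; with at least 5 cells it gave 126 (without wt/wt replicate 2, against 214 with all 4) to 206 calls against majority-load cells, 327 (without wt/- replicate 2) to 738 against cycling cells, and 1185 (without wt/- replicate 2), 1217, 1353 and 1376 against low-load B-cells. Between genotypes 3 genes were called, 18 with no low-count filter, 0 with immunoglobulin genes kept (43 at an unadjusted p under 0.05), 5 with the bound of 15%, and 7 to 42 with a library left out, 42 without wt/- replicate 3. These leave 1 library in an arm, which is assumed to vary like the 2 libraries of the other genotype. The replicate block gave 0 calls. The labels do not say that replicate numbers pair libraries, and deviations of same-numbered libraries correlated at 0.12 over 754 genes, a value that is the same for both numbers by construction with 2 libraries a genotype. The difference in the share of selected cells ranged from 0.0641 to 1.40 points over left-out libraries, and the *Igha* differences from -60.6 to -44.8 and from 12.7 to 23.1 points.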
